A study of Arabidopsis thaliana with 27 samples.

Results

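LHCB4.1 (AT5G01530), LHCB4.2 (AT3G08940) and PORB (AT4G27440) are nuclear genes of the photosynthetic apparatus, and their transcripts were followed in regenerating callus of Arabidopsis thaliana. They were chosen by gene symbol, as the probe sets that the array annotation assigns to these 3 symbols, out of 13286 genes with a usable probe set among 22810 probe sets. The 3 genes, like the gene lists used below, were chosen with earlier results of these data known. Shares of all genes are given beside them for scale and do not test the counts of calls. Each of the 3 genes has 1 probe set, and each passed into the analysis, which used no filter on low values. All 27 arrays come from the Columbia (Col-0) ecotype. Hypocotyls of 12-day-old seedlings spent 6 days on callus-inducing medium, and total RNA was taken when the callus had been on shoot-inducing medium for 0, 3 or 6 days. The 9 groups of 3 arrays combine these days with 3 genotypes, namely the wild type, a mutant in UPF1 labelled lba1-1/upf1-1 (upf1-1 from here on) and a mutant in UPF3 labelled upf3-1. No group of day 3 or 6 stayed on callus-inducing medium, so the change of medium and the passage of time cannot be told apart.

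Plants capture light with antenna proteins that hold chlorophyll and pass the energy to the reaction centres. The LHCB4 genes encode CP29, a minor antenna protein of photosystem II that lies between the core of the photosystem and the trimers of the major light-harvesting complex. PORB encodes a light-dependent NADPH:protochlorophyllide oxidoreductase, the enzyme that turns protochlorophyllide into chlorophyllide late in chlorophyll synthesis. Callus on callus-inducing medium stays pale, and tissue on cytokinin-rich shoot-inducing medium turns green as shoots form. UPF1 and UPF3 are factors of nonsense-mediated mRNA decay, which removes transcripts with premature stop codons. The question put by the series is which genes respond to the upf mutations during shoot regeneration.

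The values are log2 signals made with robust multi-array average (RMA), which gives every array nearly the same distribution, with a median of 6.57. Replicates of a group correlated with r of 0.992 to 0.997 across probe sets, and the nearest neighbour of each array, for 27 of 27, was of its own group. The title of upf1-1 day 0 replicate 1 holds the words wild type, whereas its name, source name and genotype say upf1-1, and it was kept there. The labels do not say that replicates were separate cultures, so the spread behind the p-values is that among these samples and may be technical. UPF3 signal was 8.99 to 9.08 (group means) in the wild type, 9.52 to 9.65 in upf1-1 and 5.87 to 6.10 in upf3-1. How much of the UPF3 transcript the probe set covers beyond the mutation is unknown here, so this is a partial check of the labels, and UPF1 was not analysed here. A listed gene counts as measured only if it has a probe set to which the annotation gives 1 symbol. Of the callus founder genes, 3 (LBD16, LBD29 and BBM) were measured, and their mean signal lay between 7.22 and 7.64 in the day 0 arrays of the 3 genotypes and between 5.09 and 5.30 on day 6. Within this list LBD29 was higher in upf1-1 than in the wild type on day 0 by 0.69 (limma adjusted p = 0.00188) and lower in upf3-1 than in upf1-1 (-0.93, adjusted p = 0.000561). BBM went the other way in upf1-1 over the wild type on day 0 (-0.38, limma adjusted p = 0.0452), and LBD16 was not called there (-0.30, adjusted p = 0.178). The mean of the 2 root hair genes measured (EXPA7 and EXPA18) was at most 5.26 in the day 0 arrays and 6.87 to 8.02 in the day 6 arrays, and EXPA7 was higher in upf3-1 than in the wild type on day 0 by 1.23 (adjusted p = 1.57e-05). EXPA18 was not called in that comparison (0.48, limma adjusted p = 0.0813). In upf1-1 on day 6 EXPA7 was lower than in the wild type (-0.63, limma adjusted p = 0.014). The part of these cell types in the changes described was not tested. The mean of 3 stomatal lineage genes (SPCH, MUTE and FMA) was 2.94 to 3.32 in every array, near the 10th percentile of all values at 3.07. The mean of the 2 shoot meristem genes measured (CLV3 and LAS) was 4.28 to 4.88.

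The LHCB4.1 signal was lowest in the wild type and rose there late. Day 0 arrays of the wild type read 8.01, 8.16 and 8.30, day 3 arrays 7.91, 8.19 and 7.71, and day 6 arrays 8.74, 8.90 and 9.13. Day 0 arrays of upf1-1 read 9.26, 9.11 and 9.13, day 3 arrays 9.11, 9.06 and 9.11, and day 6 arrays 9.62, 9.27 and 9.39. Day 0 arrays of upf3-1 read 8.75, 8.67 and 8.60, day 3 arrays 8.62, 9.02 and 8.77, and day 6 arrays 9.30, 9.81 and 9.62. On each day every array of either mutant was above every wild type array of that day. The wild type arrays of days 0 and 3 overlapped, and the day 6 arrays of the wild type were above both.

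LHCB4.2, another gene for the same antenna protein, had its lowest signal on day 3 in each genotype. For the wild type, signals of 5.63, 5.70 and 5.94 on day 0 were followed by 5.10, 5.19 and 4.91 at day 3 and by 5.52, 5.95 and 6.02 at day 6. For upf1-1, signals of 6.41, 6.63 and 6.58 on day 0 were followed by 5.99, 5.47 and 6.14 at day 3 and by 6.56, 6.69 and 6.60 at day 6. For upf3-1, signals of 6.28, 6.22 and 6.18 on day 0 were followed by 5.60, 6.01 and 5.99 at day 3 and by 6.69, 6.82 and 6.64 at day 6. In all 3 genotypes each day 3 array was below each day 0 array and below each day 6 array. The mutant arrays again lay above the wild type arrays of the same day without overlap. The probe sets of LHCB4.1 and LHCB4.2 carry no suffix that marks shared probes, and cross-hybridisation between the 2 copies was not tested.

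PORB signal ran over a narrower range, from 6.17 to 7.65 over the 27 arrays. Day 0 arrays of the wild type read 6.17, 6.53 and 6.78, day 3 arrays 6.34, 6.27 and 6.38, and day 6 arrays 6.69, 6.98 and 7.17. Day 0 arrays of upf1-1 read 7.29, 7.21 and 7.43, day 3 arrays 7.19, 7.14 and 7.29, and day 6 arrays 7.65, 7.44 and 7.37. Day 0 arrays of upf3-1 read 6.71, 6.92 and 6.82, day 3 arrays 6.85, 7.08 and 6.80, and day 6 arrays 7.31, 7.26 and 7.54. The upf1-1 arrays were above the wild type arrays on every day, and the upf3-1 arrays on days 3 and 6. On day 0 the highest wild type array lay inside the range of upf3-1.

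**Figure D1:**
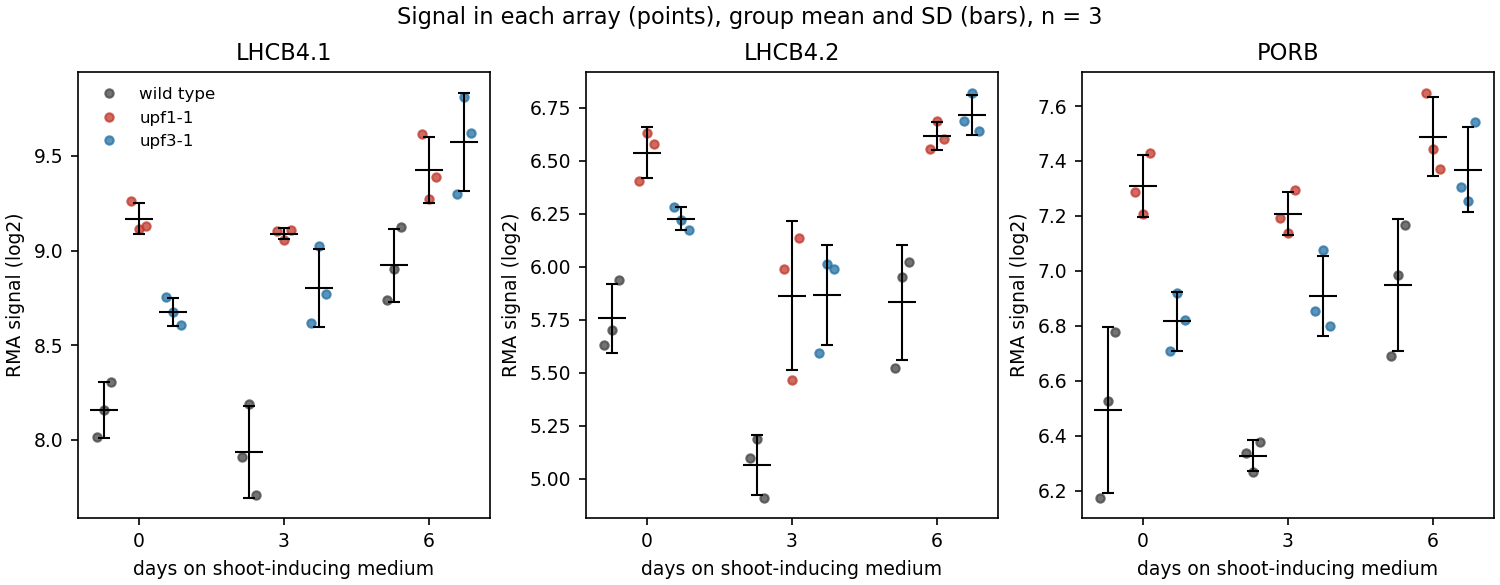
RMA signal (log2, vertical axis) of LHCB4.1, LHCB4.2 and PORB against days on shoot-inducing medium (horizontal axis); points are single arrays of the wild type (grey), upf1-1 (red) and upf3-1 (blue), and bars give the group mean and SD of 3 arrays. The vertical axes differ between panels, the wild type points lie lowest on each day except for PORB on day 0, where they overlap those of upf3-1, and LHCB4.2 is lowest on day 3 in each genotype.

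All 3 genes were higher in upf1-1 than in the wild type on every day. LHCB4.1 was 2.02-fold higher on day 0 (log2 difference 1.01, SE 0.13, limma adjusted p = 6.1e-06), LHCB4.2 1.72-fold (0.78, SE 0.14, adjusted p = 0.000395) and PORB 1.76-fold (0.82, SE 0.13, adjusted p = 6.0e-05). On day 3 the log2 differences were 1.15 for LHCB4.1, 0.80 for LHCB4.2 and 0.88 for PORB. On day 6 they were 0.50 (adjusted p = 0.00926), 0.78 (adjusted p = 0.000366) and 0.54 (adjusted p = 0.00394). A gene is called where its limma p, Benjamini-Hochberg adjusted over the 13286 genes, is under 0.05. By that rule 9 of 9 upf1-1 comparisons of the 3 genes were called higher, while the share of all genes called higher was 9.27% on day 0, 9.86% on day 3 and 10.5% on day 6. Among the 8075 genes with a mean signal of at least 5, 29.1%, 28.5% and 29.7% were called in either direction on these days. Of those calls 51.3%, 55.6% and 55.2% were higher. As the 3 genes were chosen with earlier results of these data known, setting the count beside these shares is no test. The day 6 call of LHCB4.1 was lost without wild type day 6 replicate 1 (adjusted p = 0.0665), without upf1-1 day 6 replicate 1 (0.058), or after centring each array on poly-A spike-in RNAs (0.0631).

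In upf3-1, 8 of 9 comparisons with the wild type were called higher for these genes. On day 0 LHCB4.1 was 1.43-fold higher (log2 difference 0.52, SE 0.13, limma adjusted p = 0.00867) and LHCB4.2 1.39-fold (0.47, SE 0.14, adjusted p = 0.0285). PORB differed by 0.32 (SE 0.13, adjusted p = 0.0933) and was not called. On day 3 the differences were 0.87 for LHCB4.1, 0.80 for LHCB4.2 and 0.58 for PORB, and on day 6 they were 0.65, 0.88 and 0.42 (adjusted p of PORB = 0.0224). The share of all genes called higher in upf3-1 was 8.41% on day 0, 10.9% on day 3 and 9.82% on day 6. Among genes with a mean signal of at least 5, 25.6%, 35.3% and 31.7% were called in either direction, and 54.3%, 45.4% and 49.6% of those calls were higher. Both mutants were set against the same wild type arrays, so their differences are not independent. In these whole-callus samples, more cells of a type and more RNA per cell cannot be told apart.

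Several upf3-1 calls rested on single arrays. On day 0, LHCB4.1 dropped out when wild type replicate 1 was left out (adjusted p = 0.0528). LHCB4.2 on day 0 was not called without wild type replicate 1 (0.112), wild type replicate 2 (0.0869), upf3-1 replicate 1 (0.0819) or upf3-1 replicate 2 (0.0716). PORB on day 0 became called when wild type replicate 3 was left out (log2 difference 0.47, adjusted p = 0.0189) and on the spike-in scale (adjusted p = 0.0431). PORB on day 6 was not called without wild type replicate 1 (0.167), without upf3-1 replicate 3 (0.129), on the spike-in scale (0.0712), or when only the 2 groups compared were fitted (0.0592). The poly-A spike-in probe sets, which are RNAs added in the laboratory, had a mean signal of 6.25 in the wild type on day 0, against 5.92 in upf1-1 and 6.00 in upf3-1. Centred on them, the median of all genes moved to between 0.06 and 0.31 in the comparisons of mutant with wild type, and 16 of 18 comparisons of the 3 genes were called higher. On that scale 7.49% to 24.6% of all genes were called in these comparisons, 82.7% to 98.3% of them higher. The signal of actin, GAPDH and ubiquitin control probe sets at the 3′ end minus that at the 5′ end, a sign of RNA integrity, was 1.79 in the wild type, 1.70 in upf1-1 and 1.72 in upf3-1 on day 0. On day 3 it was 1.74, 1.83 and 1.73 in that order, and on day 6 it was 1.69, 1.66 and 1.68, so upf1-1 lay below the wild type on days 0 and 6 and above it on day 3. Its part in the differences was not tested.

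**Figure D2:**
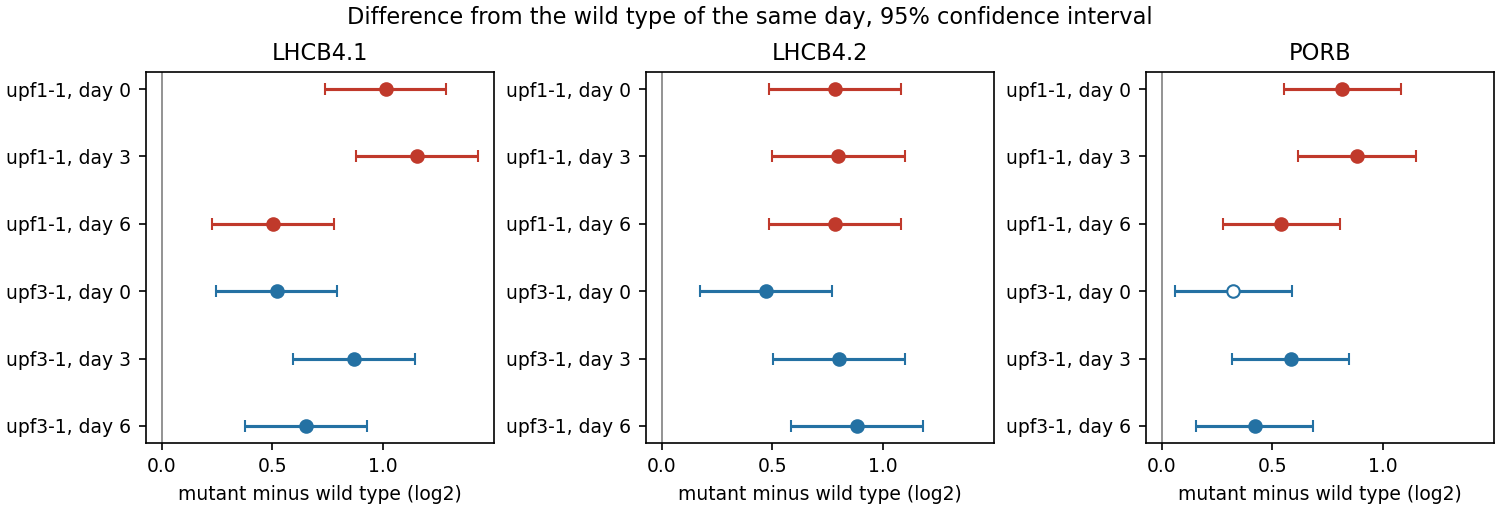
Difference between mutant and wild type of the same day (log2, horizontal axis) for LHCB4.1, LHCB4.2 and PORB in upf1-1 (red) and upf3-1 (blue); points are limma estimates from 3 arrays a group, bars the 95% confidence interval, and filled points are called. Every estimate lies above 0, and the open point is PORB in upf3-1 on day 0.

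Set against each other, the 2 mutants differed in LHCB4.1 and PORB on day 0. In upf3-1 LHCB4.1 was lower than in upf1-1 by a log2 difference of -0.49 (SE 0.13, limma adjusted p = 0.0355) and PORB by -0.49 (SE 0.13, adjusted p = 0.0288), where 1.79% of all genes were called lower. LHCB4.2 differed by -0.31 (adjusted p = 0.257). On days 3 and 6 limma called 0 of the 3 genes, with 2 at an unadjusted p under 0.05 on day 3 and 0 on day 6, where 7.93% and 2.24% of all genes were called in either direction. The day 0 call of LHCB4.1 was lost without any 1 of the 6 arrays, that of PORB without any 1 of 5 (all but upf1-1 replicate 2), and both were lost on the spike-in scale (adjusted p = 0.232 and 0.234).

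From day 3 to day 6 LHCB4.1, LHCB4.2 and PORB rose in the wild type and in upf3-1. In the wild type LHCB4.1 rose 1.98-fold (log2 change 0.99, SE 0.13, limma adjusted p = 6.98e-05), LHCB4.2 1.70-fold (0.77, SE 0.14, adjusted p = 0.00171) and PORB 1.54-fold (0.62, SE 0.13, adjusted p = 0.0038). Only 2.95% of all genes were called higher over these days. In upf3-1 the changes were 0.77, 0.85 and 0.46, all called, against 4.14% of all genes. In upf1-1 LHCB4.2 rose by 0.75 (adjusted p = 0.0048), while LHCB4.1 at 0.34 (0.183) and PORB at 0.28 (0.264) were not called, against 1.87% of all genes called higher. In 9 of 9 combinations of gene and genotype the day 6 arrays lay above the day 3 arrays without overlap. The share of all genes whose arrays separate in this way was not counted, here or between mutant and wild type. The call of PORB in upf3-1 (adjusted p = 0.0264) was lost without day 3 replicate 1 (0.119), day 3 replicate 3 (0.113) or day 6 replicate 3 (0.138), and with only the 2 groups fitted (0.0521). On the spike-in scale LHCB4.1 and PORB were called in upf1-1 as well (0.67 and 0.62). The median of all genes was 0.32 there, and 15.6% of all genes were called, 99.1% of them higher.

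Over the first 3 days LHCB4.2 was the gene of the 3 that limma called. It fell 1.61-fold in the wild type (log2 change -0.69, SE 0.14, limma adjusted p = 0.000689) and 1.60-fold in upf1-1 (-0.67, SE 0.14, adjusted p = 0.00122), but on the spike-in scale neither decrease was called (-0.41, adjusted p = 0.129, and -0.53, adjusted p = 0.104). In upf3-1 the change was -0.36 (adjusted p = 0.0605), and it was called without day 3 replicate 2 (-0.43, adjusted p = 0.0478) or among genes with a mean signal of at least 5 (0.0445). LHCB4.1 changed by -0.22, -0.08 and 0.13 in the wild type, upf1-1 and upf3-1, and PORB by -0.17, -0.10 and 0.09, none of them called. The share of all genes called lower was 15.6% in the wild type, 11.2% in upf1-1 and 17.9% in upf3-1.

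Set against day 0, day 6 levels were higher for some of the genes. LHCB4.1 was higher by 0.77 in the wild type (adjusted p = 7.36e-05, limma) and by 0.90 in upf3-1 (7.27e-06). PORB was higher by 0.45 (0.00738) and 0.55 (0.00121). LHCB4.2 differed from day 0 by 0.08 in the wild type (95% confidence interval -0.22 to 0.38, adjusted p = 0.752) and was higher in upf3-1 (0.49, adjusted p = 0.0087). In upf1-1 limma called 0 of the 3 genes (0 at an unadjusted p under 0.05), at 0.26, 0.08 and 0.18. All 3 were called in upf1-1 on the spike-in scale, but there 70.8% of all genes were called, 96.8% of them higher. The median of all genes moved by 0.47 to 0.72 on that scale over the 3 genotypes. Without that centring, the share of all genes called higher was 14.4% in the wild type, 13.4% in upf1-1 and 17.2% in upf3-1. The wild type call of PORB was lost without day 0 replicate 1 (0.0845), without day 6 replicate 3 (0.0642), or with only the 2 groups fitted (0.0775). LHCB4.2 in the wild type was called on the spike-in scale (0.82, limma adjusted p = 0.000533). There the median of all genes in the wild type was 0.72, and 90.7% of all genes were called, 98.1% of them higher.

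The difference between genotypes in these changes was tested directly. Of 12 such differences (3 genes, 2 mutants, days 3 and 6 over day 0), limma called 0, and 1 had an unadjusted p under 0.05. LHCB4.1 changed from day 0 to day 6 by 0.26 in upf1-1 and by 0.77 in the wild type, a difference of -0.51 (95% confidence interval -0.90 to -0.12, unadjusted p = 0.0124, adjusted p = 0.331). For LHCB4.2 the same difference was 0.00, with an interval from -0.42 to 0.42, and for PORB it was -0.27, from -0.65 to 0.10. Few genes of any kind were called in these tests, namely 0.241% and 0.452% for upf1-1 and 0.662% and 0.361% for upf3-1 on days 3 and 6.

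**Figure D3:**
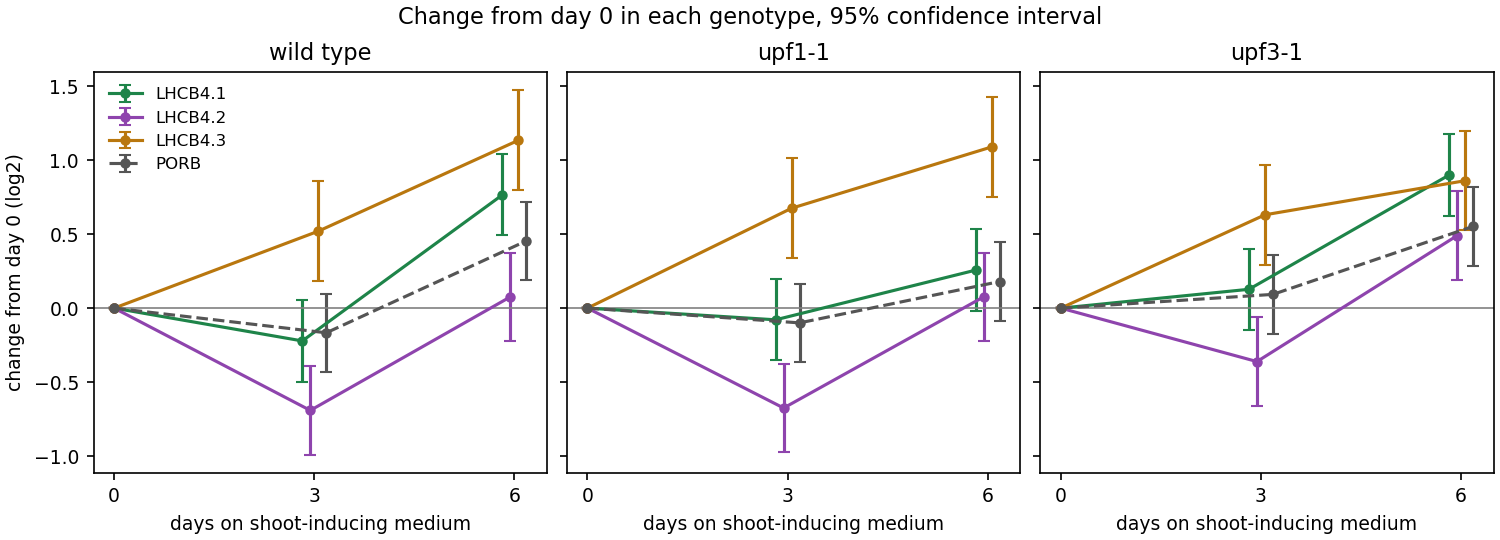
Change from day 0 (log2, vertical axis) against days on shoot-inducing medium (horizontal axis) in the wild type, upf1-1 and upf3-1 for LHCB4.1 (green), LHCB4.2 (purple), LHCB4.3 (orange) and PORB (grey, dashed); bars give the 95% confidence interval of the limma estimate from 3 arrays a group. LHCB4.2 is below 0 on day 3 in each panel, LHCB4.3 is above 0, and LHCB4.1 and PORB have intervals that hold 0.

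The signals of the genes also differed from each other in how much they changed. Each gene has 1 probe set, and whether the probe sets respond alike to a change in transcript was not tested. Within each array the log2 signal of a gene was taken minus that of another, and these values were compared between days within each genotype, or between genotypes within each day. The comparisons were two-sided exact permutation tests over 8000 relabellings, with 20 tests adjusted together, of which the 11 that concern day 3 over day 0 or LHCB4.3 were added after the data had been seen. From day 0 to day 3, averaged over the 3 genotypes, the change of LHCB4.2 was 0.52 below that of PORB (mean difference -0.52, exact adjusted p = 0.001). LHCB4.1 exceeded LHCB4.2 by 0.52 (exact adjusted p = 0.001) and differed from PORB by 0.00 (exact adjusted p = 1). From day 0 to day 6 LHCB4.1 exceeded LHCB4.2 by 0.43 (exact adjusted p = 0.00583) and PORB by 0.24 (exact adjusted p = 0.0178), with the same sign in 3 of 3 genotypes. LHCB4.2 minus PORB over these days was -0.18 (exact adjusted p = 0.0738).

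The signal difference between upf3-1 and the wild type was larger for the probe sets of LHCB4.1 and LHCB4.2 than for that of PORB. Averaged over the 3 days, LHCB4.1 exceeded PORB by 0.24 (exact permutation adjusted p = 0.0296) and LHCB4.2 exceeded PORB by 0.28 (exact adjusted p = 0.0178), in 3 of 3 days each. LHCB4.1 and LHCB4.2 differed from each other by -0.04 (exact adjusted p = 0.674). In upf1-1 over the wild type none of the differences passed this test (exact adjusted p from 0.126 to 0.674).

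Ordered by group mean, the wild type on day 3 was lowest for each of the 3 genes. The highest group was upf3-1 on day 6 for LHCB4.1 and LHCB4.2, and upf1-1 on day 6 for PORB. From lowest to highest, group means spanned 1.64 for LHCB4.1, 1.65 for LHCB4.2 and 1.16 for PORB on the log2 scale, against pooled SDs within groups of 0.17, 0.19 and 0.17. Neighbouring groups in the order had overlapping arrays in 5 of 8 steps for LHCB4.1, 5 of 8 for LHCB4.2 and 8 of 8 for PORB. For each gene 5 of the 8 steps were smaller than the pooled SD. The mean of LHCB4.1 was 9.17 ± 0.083 (SD, n = 3) in upf1-1 on day 0 and 8.92 ± 0.19 in the wild type on day 6.

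LHCB4.3 (AT2G40100), the remaining LHCB4 gene of Arabidopsis, followed another course in time. For the wild type, signals of 5.10, 5.43 and 5.62 on day 0 were followed by 6.18, 5.94 and 5.59 at day 3 and by 6.33, 6.67 and 6.55 at day 6. For upf1-1, signals of 6.25, 6.14 and 6.13 on day 0 were followed by 6.82, 6.62 and 7.11 at day 3 and by 7.35, 7.36 and 7.09 at day 6. For upf3-1, signals of 5.70, 5.93 and 5.86 on day 0 were followed by 6.13, 6.74 and 6.51 at day 3 and by 6.67, 6.90 and 6.50 at day 6. The upf1-1 arrays were above those of the wild type on each day, while upf3-1 and the wild type overlapped on days 3 and 6. From day 0 to day 3, when LHCB4.2 was lower in the wild type and upf1-1, LHCB4.3 rose by 0.52 in the wild type (limma adjusted p = 0.0175), 0.67 in upf1-1 (0.0035) and 0.63 in upf3-1 (0.00402). The wild type call was lost without day 0 replicate 1 (0.128), day 3 replicate 1 (0.116) or day 3 replicate 2 (0.0527), and with only the 2 groups fitted (0.0602). Averaged over genotypes, its day 3 change exceeded that of LHCB4.2 by 1.18 and that of LHCB4.1 by 0.67 (exact permutation adjusted p = 0.001 for each).

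The raised level in upf1-1 was shared by LHCB4.3, with log2 differences of 0.79, 0.95 and 0.75 on days 0, 3 and 6, all called by limma. In upf3-1 the differences were 0.45 (adjusted p = 0.065), 0.56 (0.0147) and 0.17 (0.533). The day 3 call was lost without wild type day 3 replicate 3 (0.112), without upf3-1 day 3 replicate 2 (0.0923) or with only the 2 groups fitted (0.0815), and the day 0 difference passed when wild type day 0 replicate 3 was left out (0.57, adjusted p = 0.0364), on the spike-in scale (0.71, adjusted p = 0.0206) and among genes with a mean signal of at least 5 (0.0466). Averaged over the 3 days, the upf3-1 difference of LHCB4.3 was below that of LHCB4.1 by 0.29 (mean difference -0.29, exact permutation adjusted p = 0.0178) and below that of LHCB4.2 by 0.32 (-0.32, exact adjusted p = 0.0195).

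Chlorophyll synthesis was represented by 10 of 28 listed genes, PORB among them. Of the 9 others, 3, 4 and 4 were called higher in upf1-1 on days 0, 3 and 6, and 3, 4 and 2 in upf3-1, where 9.27%, 9.86% and 10.5% of all genes were called higher in upf1-1 and 8.41%, 10.9% and 9.82% in upf3-1. CHLM, the methyltransferase that acts on magnesium protoporphyrin, was higher in all 6 comparisons, by 0.60, 0.52 and 0.42 in upf1-1 and by 0.40, 0.53 and 0.47 in upf3-1 (SE 0.10). It was not called in upf3-1 on day 0 without wild type replicate 3 (adjusted p = 0.0508), nor in upf1-1 on day 6 on the spike-in scale (0.0923). AT1G74470, annotated as geranylgeranyl reductase, which makes the phytyl tail of chlorophyll, was higher by 0.86 and 0.77 in upf1-1 on days 0 and 3 and by 0.56 and 0.44 in upf3-1 (SE 0.14). On day 6 it was not called in upf1-1 (0.32, adjusted p = 0.139) or upf3-1 (0.33, adjusted p = 0.119). Its upf3-1 call on day 0 was lost without upf3-1 replicate 2 (0.055), and that on day 3 without wild type replicate 1 (0.103), wild type replicate 3 (0.159) or upf3-1 replicate 2 (0.185), and with only the 2 groups fitted (0.127). The median log2 difference of the 9 genes was 0.12, 0.28 and 0.32 in upf1-1 and 0.06, 0.14 and 0.16 in upf3-1, against -0.03, -0.01 and -0.02 (upf1-1) and -0.02, -0.04 and -0.02 (upf3-1) over all genes. The single member called lower, picked out after its values were seen, was HEMB1, an early enzyme of the shared tetrapyrrole route, at -0.17 in upf3-1 on day 3 (adjusted p = 0.0475), which was lost without any 1 of the 6 arrays, with only the 2 groups fitted (0.145) and with arrays centred on reference genes (-0.12, adjusted p = 0.207), and was 0.14 on the spike-in scale.

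Most measured photosystem subunits and Calvin cycle genes of the lists were called higher in the mutants as well. Of 5 measured photosystem subunits, 5, 5 and 5 were called higher in upf1-1 on days 0, 3 and 6, and 4, 5 and 5 in upf3-1. Of 3 measured Calvin cycle genes, 3, 3 and 2 were called higher in each mutant, and SBPASE on day 6 was not (0.48, adjusted p = 0.16 in upf1-1, and 0.63, adjusted p = 0.0586 in upf3-1). The share of all genes called higher in these comparisons was 8.41% to 10.9%. Most listed photosystem subunits and Calvin cycle genes were not measured, so these counts cover only a part of each list. Of the listed photosystem II antenna genes only LHCB4.1, LHCB4.2 and LHCB4.3 were measured. PSBW, a small subunit of photosystem II, was higher by 1.44, 1.51 and 0.77 in upf1-1 (SE 0.17), and was called higher on all 3 days in upf3-1. PSAE-1, a subunit of photosystem I on the stromal side, was higher by 1.38, 1.41 and 0.66 in upf1-1, where the day 6 call was lost without wild type replicate 1 (adjusted p = 0.0775). PRK, the phosphoribulokinase of the Calvin cycle, had the largest differences of the 20 other listed genes in upf1-1, at 1.67, 2.06 and 1.32 (SE 0.18). NOL, a chlorophyll b reductase that acts in chlorophyll breakdown, was higher too, by 0.67, 0.72 and 0.81 in upf1-1 and by 0.45, 0.53 and 0.60 in upf3-1 (SE 0.096). Over all 20 listed genes other than the 3 described here, 13, 14 and 13 were called higher in upf1-1 and 11, 14 and 10 in upf3-1, against the same 8.41% to 10.9% of all genes.

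HYH, a bZIP factor related to HY5 that acts in light responses, was the only regulator of greening, of 19 listed, with a probe set of 1 symbol. It rose from day 0 to day 3 by 1.55 in the wild type, 1.16 in upf1-1 and 1.45 in upf3-1, over days when LHCB4.1 and PORB were not called. Limma called HYH in 0 of 6 comparisons of mutant with wild type, and on the spike-in scale it was called in upf1-1 on day 0 (0.53, adjusted p = 0.029). From day 3 to day 6, when LHCB4.1, LHCB4.2 and PORB rose in the wild type, HYH fell there by 0.74 (log2 change -0.74, limma adjusted p = 0.00521), a decrease that was not called on the spike-in scale (-0.28, adjusted p = 0.144). Over the same days limma called 5 of 5 photosystem subunits higher in the wild type, 4 of 5 in upf3-1 and 0 of 5 in upf1-1, where 2.95%, 4.14% and 1.87% of all genes were called higher. The median change of the 5 subunits was 0.92 in the wild type, 0.67 in upf3-1 and 0.40 in upf1-1, and the difference between genotypes over these days was not tested. Of the 9 other chlorophyll synthesis genes 1 was called higher in each genotype, with median changes of 0.10, 0.11 and 0.16 in the wild type, upf3-1 and upf1-1.

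**Figure D4:**
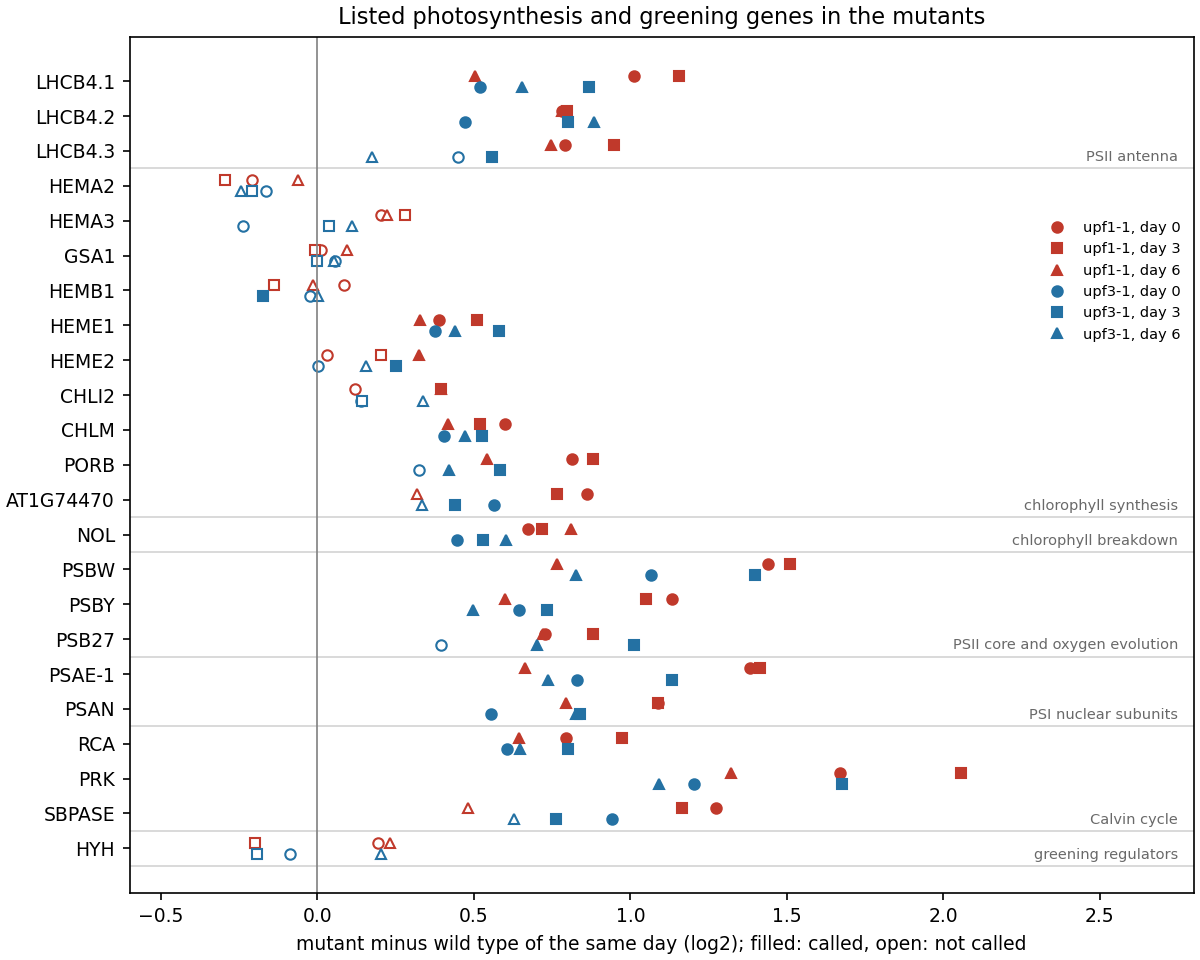
Difference between mutant and wild type of the same day (log2, horizontal axis) for the 23 measured genes of the photosynthesis and greening lists (vertical axis) in upf1-1 (red) and upf3-1 (blue) on days 0 (circles), 3 (squares) and 6 (triangles), with filled symbols for calls by limma. The antenna, photosystem and Calvin cycle genes lie right of 0, while HEMA2, HEMA3, GSA1 and HYH have no filled symbol.

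Genes with the most similar pattern were found by Pearson's r over the 9 group means, among 2422 genes whose group means had an SD of at least 0.3. For LHCB4.1 they were PSAE-1 (r = 0.991), AT4G10060 (0.987), PORB (0.980), AT1G51110 (0.980) and the geranylgeranyl reductase gene AT1G74470 (0.978). For PORB they were PSAE-1 (0.983), LHCB4.1 (0.980), AT5G02160 (0.978), AT4G10060 (0.963) and AT1G51110 (0.963). LHCB4.2 had other nearest genes, namely AT2G26690, annotated as NPF6.2 of the nitrate and peptide transporter family (0.981), AT3G47250 (0.961), AT4G01150, annotated as CURVATURE THYLAKOID 1A (0.946), AT3G61930 (0.913) and OASA2 (0.901). LHCB4.1 stood at rank 17 in the list of LHCB4.2, with r = 0.869, and LHCB4.2 and LHCB4.3 had r = 0.470. The 9 points of each r share their arrays and the high level of the mutants, so these values describe likeness only.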

How the data were processed

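Total RNA of 27 callus samples was hybridised to Affymetrix arrays. The authors deposited log2 signals per probe set made with RMA (version not given in the sources), per the submitters' processing notes. This method subtracts background, equalises the distributions of the arrays and summarises probes, so it hides any shift common to most transcripts. The other deposited table held log2 values that differed in 0 cells. The number of arrays, 3 a group, limits the precision.

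The arrays hold 22810 probe sets, 64 of them controls. The annotation gives 1 symbol for 13513 and several for 503. Those matched to a RefSeq locus, with the brightest probe set kept per gene, left 13286 genes. Coordinates are left out because the annotation names no build, and sequences were not used here. Groups and replicate numbers came from the labels. With limma 3.58.1 in R 4.3.3 (statmod 1.5.0, jsonlite 2.0.0), all 27 arrays entered a linear model of the 9 group means, and 22 contrasts were tested two-sided with Benjamini-Hochberg adjustment over 13286 genes. Data for 13286 genes were also simulated with independent normal noise, each gene's mean and spread, and upward changes in upf1-1 on day 0 alone. For upf1-1 over wild type on day 0, limma found 56 of 67 genes set to a 1.5-fold change, 66 of 67 set to 2-fold and 66 of 66 set to 4-fold. There were 8 false calls, and 0 calls in unchanged data. The real comparison had 2272 genes called, in both directions, so these counts need not carry over to it.

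The members and the 14 gene lists (154 entries, 40 measured) were chosen with earlier results of these data known. Named are the 3 genes, up to 2 called members of a list with the largest change in a comparison, and the 5 genes most like each member over group means. Following LHCB4.3, CHLM, NOL and HYH through all comparisons was decided after their values were seen. Of the lists, PSI antenna and antenna import and phosphorylation had 0 measured members. Probe sets without a symbol or with several were not searched for listed genes. Alternatives were a fit of only the groups compared, a replicate block, 2 other centrings (24 spike-in probe sets, 7 reference genes), a filter at a mean signal of 5, all probe sets, a trended robust prior, the second table and leaving out each array.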

Additional observations from a re-analysis of the deposited data

How the results depend on the processing

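Over the 66 values of LHCB4.1, LHCB4.2 and PORB, 0 were reversed by any alternative. Calls stayed on their side of the threshold for all 66 with the replicate block, reference genes, the trended prior, all probe sets and the second table, for 65 with the signal filter, 63 with only the groups compared and 53 on the spike-in scale. Leaving out 1 array lost a call in 25 cases and gained 2, with 441 not changed. On the spike-in scale the number of the 3 genes called became 0 for the wild type and upf1-1 from day 0 to day 3, and 0 for upf3-1 over upf1-1 on day 0. It became 3 for upf1-1 from day 0 to day 6 and from day 3 to day 6, where 70.8% and 15.6% of all genes were called. With the signal filter it became 1 for upf3-1 from day 0 to day 3, and with only the groups compared 1 for the wild type from day 0 to day 6. The cause was not tested. Leave-one-out counts ran from 0 to 1 for upf3-1 over upf1-1 on day 0, from 0 to 3 for upf3-1 over the wild type on day 0, from 0 to 1 for upf3-1 from day 0 to day 3, and from 1 to 2 for the wild type from day 0 to day 6. Without 1 array, the change of LHCB4.1 minus that of PORB ranged from 0.10 to 0.20 in upf1-1 over the wild type, and that of LHCB4.2 minus that of PORB from -0.22 to -0.14 between days 0 and 6. HEMB1 in upf3-1 over the wild type on day 3 went from -0.17 to 0.14 on the spike-in scale, where the median of all genes moved too.

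The replicate numbers did not pair the arrays: deviations of same-numbered arrays correlated above 0.1 in 14 of 54 pairs (r from -0.29 to 0.27), and in 1 of 18 contrasts every pair did. With the replicate block 17 of 18 comparisons of mutant with wild type were called, as without it, HEMB1 in upf3-1 over the wild type on day 3 was not (adjusted p = 0.052), and the number of genes called went from 2035 to 2994 over these 6 comparisons to 1945 to 2911.

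Over all genes, the share of calls that were higher between mutant and wild type was 48.5 to 59.1%, against 55.1 to 71.8% centred on reference genes and 82.7 to 98.3% on spike-ins. For day 6 over day 0 it was 42.8 to 46.0%, against 96.8 to 98.1% on spike-ins, with 3870 to 5174 genes called against 9404 to 12052. With only the groups compared, 1242 to 2260 genes were called between mutant and wild type and 97 to 409 between the mutants, against 298 to 1053.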
